A study of Mus musculus with 8 samples.

Results

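The comparison described here set kidney leukocyte suspensions from mice 7 days after ischemia-reperfusion injury (IRI) and vehicle treatment against suspensions from uninjured control mice. Its cells were chosen by their condition in the deposited cell table and by 3 limits, which were more than 300 genes, fewer than 20000 counts and less than 25% mitochondrial counts. In all, 17315 of the 90855 cells of the series that passed these limits belonged to the comparison, 11205 from the control pool and 6110 from the vehicle day 7 pool. All mice were male C57BL/6 animals. In the day 7 group the left kidney was injured on one side only, the contralateral kidney was kept, and the vehicle, DMSO, was injected intraperitoneally before IRI and daily afterwards. The control kidneys were untouched. Kidneys of 3 mice were pooled per condition, and live cells were enriched for leukocytes by fluorescence-activated sorting on SYTOX Blue exclusion and light scatter. Ages were not given in the sources used here.

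The series follows IRI with and without entospletinib, an inhibitor of the spleen tyrosine kinase SYK, and the present comparison holds only untreated-control and vehicle cells. Libraries were made by split-pool barcoding, in which fixed cells receive combinations of barcodes in successive rounds, and the cells were then divided into 8 sublibraries that each contained all 7 conditions. With 1 pool per condition there was no biological replicate, so nothing could be tested between the conditions. Sublibraries are technical portions of the same pool. The 95% intervals given below are exact and cover counting error only, since counts of one cell are not independent.

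In a kidney with IRI, blood flow is stopped and restored, tubule cells are injured, and neutrophils and monocytes enter from the blood. Monocytes can mature into macrophages within the tissue, alongside resident macrophages that were present before. Macrophages in injured tissue take up dead cells, handle the lipid and iron they carry, and release cytokines, chemokines and matrix proteins. Glucocorticoid receptor targets such as *Fkbp5*, *Tsc22d3* and *Zbtb16* follow circulating corticosteroid hormone in many cell types.

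The pools differed in several technical measures. The limits kept 55.3% of 20279 control barcodes and 47.1% of 12968 day 7 barcodes, against 93.9% and 94.1% in the vehicle pools of days 1 and 14. Barcodes at 25% mitochondrial counts or more numbered 8780 in the control pool and 6005 at day 7. Kept cells had a median of 2928 counts and 1351 genes in the control and 2526.5 counts and 1055 genes at day 7, with 40077221 and 21269083 counts in all. No barcode was shared by both pools. The nuclear-retained transcript *Malat1* took 2.73% of control counts and 1.7% of day 7 counts, and the ribosomal RNA feature *Rn18s-rs5* took 13.1% and 17.7%. A set of 11 genes that stood at least 0.5 above the median log2 ratio in every class tested (*Camk1d*, *Ccnb1ip1*, *Cdk8*, *Cmss1*, *Gm19951*, *Gm47283*, *Gphn*, *Il31ra*, *Lars2*, *Rn7sk* and *Rpph1*) summed to 5.59% of control counts and 12.2% of day 7 counts. With totals that left out these 11 genes and *Rn18s-rs5*, an alternative chosen after seeing the data, 504 genes were beyond 2-fold over all cells and 173 in macrophage-like cells, against 519 and 184 with all counts. The part of the other differences in the results below was not tested.

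Cells were assigned to classes by at least 2 marker genes of a class, with cells carrying at least 3 markers of a second lineage set aside. Classes are called by the markers they carry (macrophage-like, and so on). Because the suspension was sorted for leukocytes, the shares describe the sorted cells and not the kidney, and fewer cells of one class and more of another cannot be told apart. Leukocyte classes made up 56.8% (55.9 to 57.7%) of control cells and 83.5% (82.5 to 84.4%) of day 7 cells.

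Neutrophil-like cells were rare in the control and the second most frequent class at day 7. They made up 0.651% of control cells (73 cells) and 25.8% of day 7 cells (1576 cells), with 0.287 to 0.96% and 24.3 to 28.4% over the sublibraries. This is a 39.3-fold higher share at day 7. Monocyte-like cells made up 1.91% of control cells (214 cells, 1.22 to 2.33% over the sublibraries) and 11.2% of day 7 cells (684 cells, 9.68 to 13.7%), a 5.85-fold higher share. In both classes every day 7 sublibrary lay above every control sublibrary. Where clusters took the place of the gate, the log2 ratio of the monocyte share was 7.49 against 2.55 with the gate, because the cluster named monocyte-like held 60.8% of the gated day 7 cells and most gated control cells lay in another cluster. Macrophage-like cells were the most frequent class in either pool, at 32.1% (31.2 to 33%, 3595 cells) and 30.4% (29.3 to 31.6%, 1858 cells). Their sublibrary ranges overlapped, at 30.9 to 33.6% and 27.8 to 33.4%, and with a limit of more than 500 genes per cell the log2 ratio was 0.08 instead of -0.08. As a share of leukocyte classes alone, macrophage-like cells made up 56.5% in the control and 36.4% at day 7.

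Structural cells were less frequent at day 7. Endothelial-like cells made up 18.3% of control cells (2050 cells, 16.9 to 19.3%) and 3.37% of day 7 cells (206 cells, 2.33 to 4.55%), a 5.41-fold lower share. Proximal tubule-like cells made up 9.8% (1098 cells, 8.03 to 12.9%) and 2.54% (155 cells, 1.69 to 3.14%), a 3.85-fold lower share. Both are classes that a leukocyte sort is meant to remove, so these shares depend on how the sort worked in each pool. T-like cells made up 5.72% (641 cells) and 2.75% (168 cells), and their sublibrary ranges of 5.32 to 6.96% and 2.26 to 3.79% did not overlap. Conventional dendritic classes differed less. Type 2 (cDC2-like) cells made up 4.75% and 4.35% and type 1 (cDC1-like) cells 3.28% and 2.52%. B-like cells made up 3.41% and 2.47%. Cells like type 2 innate lymphoid cells numbered 49 in the control and 6 at day 7, at 0.437% and 0.0982%. Cells with markers of more than one lineage made up 9.41% and 3.18%, and cells without enough markers 2.8% and 6.35%.

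**Figure D1:**
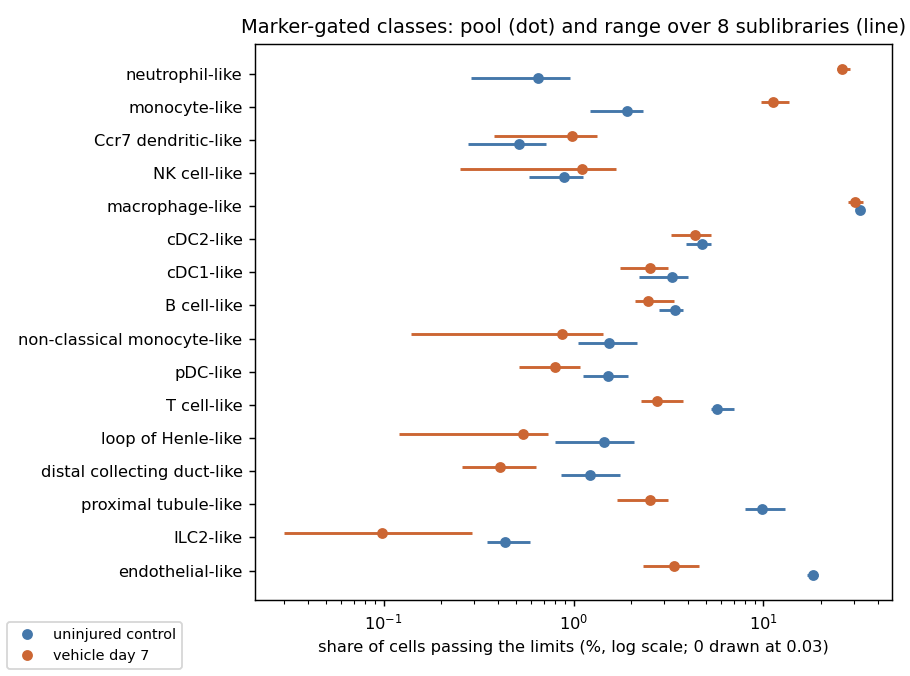
Share of cells passing the limits (percent, log axis, 0 drawn at 0.03) in each marker-defined class, with dots for the control and vehicle day 7 pools and lines for the range over the 8 technical sublibraries. Neutrophil-like and monocyte-like cells sit higher at day 7, endothelial-like and proximal tubule-like cells lower, and the lines of macrophage-like cells overlap.

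Expression was compared within the 8 classes with at least 100 cells in each pool. Counts of a class were summed per pool and scaled to counts per 1000000 (CPM), and a gene was kept where the mean of both pools reached 50 CPM. The ratio of day 7 to control was taken on a log2 scale after adding a prior count of 0.5. Since the median ratio of the kept genes was below 0 in each class, each gene is described by its log2 ratio relative to the median of its class, called the relative log2 ratio here, so the median of all kept genes is 0. Counts of genes beyond 2-fold, given for ratios of CPM and for relative ratios, are descriptions of these pools without a test. Over all 17315 cells, with 3418 genes kept and a median log2 ratio of -0.24, 197 genes (5.76%) were beyond 2-fold higher and 322 (9.42%) beyond 2-fold lower on the CPM scale, or 265 (7.75%) and 241 (7.05%) relative to the median. These counts include the change in class shares. The highest of the whole suspension included *Il1rn* (relative log2 ratio 5.24), *Slc7a11* (5.22) and *Cxcl2* (4.95), and the lowest of those named by the rule were *Ltbp1* (-3.07) and *Tll1* (-3.01). *Plvap* (-2.86) and *Esm1* (-2.81), which are known from endothelial cells, came next. Within endothelial-like cells alone *Plvap* stood at 994.6 and 691.7 CPM (relative log2 ratio -0.43), and *Esm1* at 544.8 and 355.5 CPM (-0.52).

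In macrophage-like cells most genes kept their level. Of 3142 genes kept, 94.1% lay within 2-fold. With a median log2 ratio of -0.32, 63 genes (2.01%) were beyond 2-fold higher and 121 (3.85%) beyond 2-fold lower on the CPM scale, or 114 (3.63%) and 51 (1.62%) relative to the median. The class was not the same mixture of cells in both pools. On clustering all cells without regard to the gate, 60.7% of control macrophage-like cells and 35.4% of those at day 7 fell in cluster 0, and 4.23% and 31.7% in cluster 6. Cells with at least 2 of the monocyte markers made up 5.42% of control macrophage-like cells and 28.3% of those at day 7. Finding 2 markers depends on depth, and macrophage-like cells had a median of 2710 counts in the control and 3753.5 at day 7. This share was not taken at equal depth, so the part of depth in it was not tested. All 8 monocyte markers were detected, and their summed level was 267.8 CPM (245.7 to 288.0 over the sublibraries) in the control and 1241.8 CPM (1022.5 to 1464.6) at day 7. Summed non-classical monocyte (179.6 and 67.3 CPM) and cDC1 markers (575.4 and 328.3 CPM) were lower at day 7. So were endothelial (119 and 53.2 CPM) and proximal tubule markers (129.9 and 44.8 CPM), while cDC2 markers were higher (64.6 and 138 CPM). These ranges were apart. Proximal tubule markers were also lower in monocyte-like (108.7 and 46.1 CPM) and T-like cells (137.1 and 45 CPM). Their part was not tested. Values without the cells with at least 2 monocyte markers, an alternative chosen after seeing the data, are given beside the named genes and for several lists. Without them the number of genes beyond 2-fold on the CPM scale was 93 instead of 184.

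Among the genes with the highest relative ratios in macrophage-like cells, *Thbs1* (chr2:118111876-118127133, plus strand, GRCm38), which codes for the matrix glycoprotein thrombospondin 1, had 31.3 CPM in the control (20.5 to 41.9 over the sublibraries) and 391.7 CPM at day 7 (221.7 to 470.1), with a relative log2 ratio of 3.96 (95% counting interval 3.81 to 4.12). Every day 7 sublibrary lay above every control sublibrary. Without the cells with at least 2 monocyte markers it was 27.6 and 106.2 CPM (2.22). *Tgm2*, coding for the cross-linking enzyme transglutaminase 2, stood at 12.1 and 112 CPM (3.53, and 2.65 from 8.74 and 45.8 CPM without those cells). *Gda*, which codes for guanine deaminase, stood at 21.6 and 184 CPM (3.41, and 2.49 from 16.6 and 77.3 CPM). *Cd38*, an enzyme that consumes NAD, stood at 11.6 and 88.9 CPM (3.26, and 2.63 from 11.7 and 60 CPM). Without those cells these 3 genes fell under the mean of 50 CPM and would not have been kept. The other genes named by the rule were *Arhgap24* (28.0 and 182 CPM, 3.02, and 2.11 without those cells), the AP-1 subunit gene *Fosl2* (29.5 and 183 CPM, 2.95 and 2.17), the neutrophil-attracting chemokine gene *Cxcl2* (46.7 and 245.5 CPM, 2.71 and 1.84), *Ptgs2*, which codes for the inducible cyclooxygenase (26.6 and 139.6 CPM, 2.71 and 2.23), and *Ccnb1ip1* (133 and 539 CPM, 2.34 and 2.46), one of the 11 genes high in every class. For each of these genes the sublibrary ranges of the pools were apart.

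On the lower side the first gene was *Fkbp5* (chr17:28399094-28517527, minus strand), which codes for a co-chaperone of the glucocorticoid receptor and is itself induced by that receptor. It stood at 400.7 CPM in the control (378.0 to 442.2 over the sublibraries) and 61.1 CPM at day 7 (45.6 to 72.8), with a relative log2 ratio of -2.39 (-2.53 to -2.26). Without the cells with monocyte markers it was 411 and 66.1 CPM (-2.36). After thinning each cell to 500 counts, 17.6% of control and 2.96% of day 7 macrophage-like cells had an *Fkbp5* count (55.9% and 18.8% unthinned).

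*Tgfbr1* (chr4:47353222-47414931, plus strand), coding for the type I receptor for transforming growth factor beta and highly expressed in resident macrophages, stood at 3069.9 CPM (2903.1 to 3283.6) and 848 CPM (752.8 to 963.7), a relative log2 ratio of -1.54 (-1.27 without the cells with monocyte markers). The cyclin gene *Ccnd3* (chr17:47505051-47599691, plus strand) stood at 837 and 179.8 CPM (-1.90 and -1.67). The collagenase gene *Mmp13* stood at 235 and 49.8 CPM (-1.92 and -1.5). *Ptchd1* (204.7 and 46.6 CPM), *Dlc1* (659 and 162 CPM), *Jade2*, the adhesion receptor gene *Adgrl3* (568 and 149 CPM), the cGMP-dependent kinase gene *Prkg1* and a gene known only by its identifier, ENSMUSG00000120703, had relative log2 ratios from -1.81 to -1.53. Without the cells with monocyte markers the values of these genes were -1.45, -1.29, -1.32, -1.28, -1.22 and -1.23 in the same order. In all 10 the day 7 sublibraries lay below the control sublibraries.

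**Figure D2:**
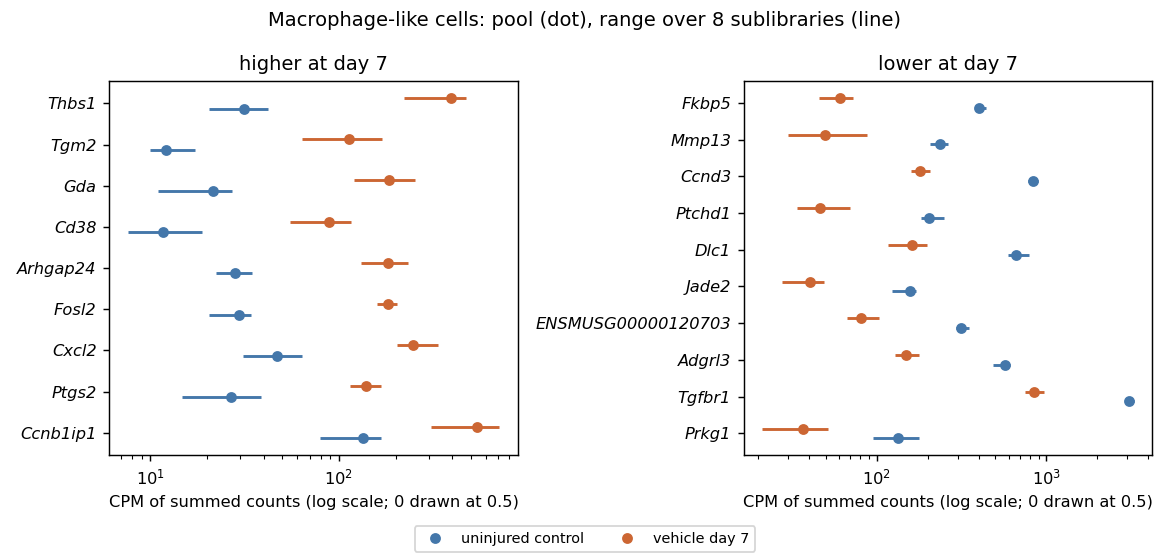
Level in CPM (log axis, 0 drawn at 0.5) of named genes in macrophage-like cells, with dots for the control and vehicle day 7 pools and lines for the range over the 8 technical sublibraries. *Thbs1* stands at 31.3 and 391.7 CPM and *Fkbp5* at 400.7 and 61.1 CPM, and the lines of the pools are apart for every gene shown.

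The gene lists place these in groups. All 12 genes of the resident macrophage list were kept, and their median relative log2 ratio was -0.83, with 10 below and 2 above the median of all genes. Relative to the median, 4 were beyond 2-fold lower (*Arhgap22*, *Tgfbr1*, *Agmo* and *Cadm1*) and none higher, where 1.62% of all genes were lower. On the CPM scale 8 of the 12 were beyond 2-fold lower, where 3.85% of all genes were. *Selenop*, a secreted selenium carrier, stood at 309.5 and 401.5 CPM (0.70). Without the cells with monocyte markers the list median was -0.55, and *Cadm1* stood at -0.63. The lower values were not particular to macrophage-like cells. The list median was -1.10 in cDC2-like (6 kept), -0.99 in cDC1-like (10 kept) and -0.45 in monocyte-like cells (7 kept). It was -0.39 in proximal tubule-like and -0.09 in endothelial-like cells (6 kept in each). Of the 18 lipid-handling genes 14 were kept, with a median of 0.48 and 12 above the median of all genes. The cholesterol exporter gene *Abca1* stood at 156 and 559.8 CPM (2.16) and the lysosomal protease gene *Ctsd* at 47.6 and 167 CPM (2.13), and these were the 2 members beyond 2-fold higher on both scales, where 2.01% of all genes were higher on the CPM scale and 3.63% relative to the median. *Apoe* stood at 1199.6 and 1859.7 CPM (0.95), *Spp1*, coding for osteopontin, at 124 and 225 CPM (1.18), and the scavenger receptor gene *Cd36* at 374 and 163 CPM (-0.87). Without the cells with monocyte markers the list median was 0.21.

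The list of macrophage injury genes had 12 of 18 members kept and a median of 0.49, with *Thbs1* and the hyaluronan receptor gene *Cd44* (244 and 586 CPM, 1.58) beyond 2-fold higher on both scales, and *Mmp12*, a macrophage elastase gene, beyond 2-fold lower (390.5 and 154 CPM, -1.02). Over all kept genes 3.63% were higher and 1.62% lower relative to the median. *Cd44* stood at 0.78 without the cells with monocyte markers. Immediate early genes, which respond within minutes to signals and to handling of cells, had 14 of 22 members kept. All 14 lay above the median of all genes, with a list median of 0.98 and with *Fosb* (86.9 and 232 CPM, 1.74), *Fosl2* and *Nr4a3* (29.6 and 117.5 CPM, 2.31) beyond 2-fold higher on both scales, where 2.01% of all genes were on the CPM scale. Of 11 kept negative regulators and targets of NF-kB, 10 lay above the median of all genes with a list median of 0.70. *Nfkbia*, coding for the inhibitor that holds NF-kB in the cytoplasm, stood at 146 and 242 CPM (1.05), and *Tnfaip3*, coding for the deubiquitinase A20, at 109 and 169.8 CPM (0.95). None of the 11 was beyond 2-fold on the CPM scale.

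Of the 22 genes of glycolysis and the hypoxia response, 9 were kept with a median of 0.92 (0.14 without the cells with monocyte markers). *Hk2*, coding for hexokinase 2, stood at 52.6 and 111.5 CPM (1.40, and 0.67 without those cells) and *Hif1a* at 64.0 and 119 CPM (1.22), while the glucose transporter gene *Slc2a3* stood at 71.8 and 29.7 CPM (-0.95). The glucocorticoid list had 8 of 16 members kept and a median of -0.27. *Fkbp5*, *Zbtb16* (334 and 107.8 CPM, -1.31) and *Tsc22d3* (90.9 and 31.8 CPM, -1.20), coding for the leucine zipper protein GILZ, were beyond 2-fold lower on both scales, where 3.85% of all genes were lower on the CPM scale and 1.62% relative to the median. *Nfkbia*, also on this list, was beyond 2-fold higher relative to the median (1.05) but not on the CPM scale. Antigen presentation genes stayed close to the median of all genes, with medians of -0.24 for MHC class II (7 of 10 kept) and -0.18 for MHC class I (9 of 12 kept). The 5 kept interferon response genes of 23 lay below the median of all genes, with a list median of -0.59. The 21 kept genes of the SYK signalling list of 23 had a median of 0.05. Of the CC chemokines, *Ccl6* stood at 63.8 and 140.7 CPM (1.46) and *Ccl9* at 46.8 and 95.5 CPM (1.35).

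Monocyte-like cells differed between the pools in more genes than macrophage-like cells by count, and 83.6% of 2977 genes lay within 2-fold. With a median log2 ratio of -0.28, 176 genes (5.91%) were beyond 2-fold higher and 313 (10.5%) beyond 2-fold lower on the CPM scale, or 258 (8.67%) and 160 (5.37%) relative to the median. The cells that made up this class differed in kind. Of its control cells 68.2% fell in cluster 10, led by *Ace*, *Arhgef37* and *Adgre4*. Of its day 7 cells 60.8% fell in cluster 9, with *Pdpn*, *Fn1*, *Mmp19*, *Pf4* and *Thbs1* among its leading genes. Among the markers used for the gate, *Ly6c2*, the classical monocyte surface gene, was found in 22% of control and 5.12% of day 7 cells, *Plac8* in 66.8% and 20.2%, and *Fn1* in 56.5% and 84.2%. The summed non-classical monocyte markers in this class stood at 335.8 CPM in the control (220.7 to 503.2 over the sublibraries) and 67.1 CPM at day 7 (43.5 to 103.2), with all 6 detected in both pools and ranges apart, and their part in the lower genes below was not tested. The values below therefore compare different cells as well as different times, and the share of each cannot be told apart here.

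*Inhba*, coding for the activin A subunit, had 0 counts in the 214 control monocyte-like cells and 448 counts at day 7. This is 148.7 CPM, at least 40.2-fold higher than the 3.7 CPM that a count of 0 allows over the control class (3 counts). Of its day 7 counts 45.5% came from the top 10 cells. *Cxcl3*, a neutrophil-attracting chemokine gene, had 0 and 303 counts, or 0 and 100.6 CPM, at least 27.2-fold higher.

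*Pf4* and *Il1a*, coding for platelet factor 4 and interleukin 1 alpha, had 1 count each in the control class and 137.8 and 125 CPM at day 7, with relative log2 ratios of 6.50 (4.60 to 12.39) and 6.36 (4.46 to 12.25). *Nt5e*, the gene of the adenosine-producing ectoenzyme CD73, had 2 counts in the control and 139 CPM at day 7, with a relative log2 ratio of 5.78 (4.24 to 9.15). *Pdpn*, coding for podoplanin, stood at 8.64 and 243 CPM (4.99), *Dip2c* at 21.0 and 382 CPM (4.43), and the motor protein gene *Myo1e* at 37.0 and 579.6 CPM (4.23). *Cxcl2* (chr5:90903871-90905938, plus strand) stood at 46.9 CPM (8.81 to 107.8) and 798 CPM (604.7 to 1018.1), with a relative log2 ratio of 4.35 (3.91 to 4.87). After thinning, 2.35% of control and 24.1% of day 7 monocyte-like cells had a *Cxcl2* count, against 0.928% and 4.37% of endothelial-like cells and 14.1% and 68.5% of neutrophil-like cells. Each of these genes had sublibrary ranges that were apart.

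The promoters of *Cxcl2*, *Cxcl3* and *Nfkbia* are shown because their genes were among the higher chemokine and NF-kB feedback genes and hold an NF-kB motif, searched as GGG, then any 2 bases, then TTTCC. Each sequence is the 250 bases before the gene start in RefSeq (GRCm38.p6), 5′ to 3′ on the gene's strand, with motif matches in capitals. *Cxcl2* is at chr5:90903649-90903898 on the plus strand with 2 matches, *Cxcl3* at chr5:90785851-90786100 on the plus strand with 1 match, and *Nfkbia* at chr12:55492648-55492897 on the minus strand with 1 match, which lies on the opposite strand and so reads as the reverse complement.
Cxcl2: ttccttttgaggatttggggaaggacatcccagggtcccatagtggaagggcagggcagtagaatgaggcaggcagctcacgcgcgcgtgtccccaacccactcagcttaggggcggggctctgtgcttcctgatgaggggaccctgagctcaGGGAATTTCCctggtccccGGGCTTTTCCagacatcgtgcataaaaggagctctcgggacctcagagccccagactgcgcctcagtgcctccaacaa
Cxcl3: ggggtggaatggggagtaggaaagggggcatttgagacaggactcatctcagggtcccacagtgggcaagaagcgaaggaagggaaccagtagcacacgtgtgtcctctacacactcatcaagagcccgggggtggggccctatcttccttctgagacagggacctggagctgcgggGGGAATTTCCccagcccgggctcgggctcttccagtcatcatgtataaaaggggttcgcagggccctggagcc
Nfkbia: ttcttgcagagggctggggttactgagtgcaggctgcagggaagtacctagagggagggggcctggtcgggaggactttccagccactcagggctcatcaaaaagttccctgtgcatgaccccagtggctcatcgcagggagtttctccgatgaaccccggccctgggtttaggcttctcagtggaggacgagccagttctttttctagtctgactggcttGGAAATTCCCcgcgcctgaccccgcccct
Counted on both strands of the 300 bases around the gene start, the motif was in 535 of 32851 RefSeq promoters (1.63%). It was in 63 of 3251 promoters (1.94%) of genes kept in monocyte-like cells, in 12 of 185 (6.49%) of those beyond 2-fold higher on both scales and in 2 of 169 (1.18%) of those beyond 2-fold lower. In macrophage-like cells it was in 3 of 60 promoters of higher genes and 0 of 59 of lower genes. A match is a string of letters in this window and was not tested as a binding site.

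The genes lowest at day 7 in monocyte-like cells were *Ms4a4c* (chr19:11404770-11427246, plus strand; 238 and 29.5 CPM, relative log2 ratio -2.73), *Gpr141* (659 and 93.3 CPM, -2.54), the interferon-inducible gene *Ifi213* (165 and 25.2 CPM, -2.43), which has near-identical neighbours that could share its reads, and *Hpgd* (131 and 20.6 CPM, -2.38), which codes for the enzyme that inactivates prostaglandins. They were followed by *Adgrl3* (149 and 25.2 CPM), *Arhgef37* (274 and 47.8 CPM), *Pot1b* (344.5 and 60.4 CPM), *Ccnd3* (702.5 and 127 CPM), *Stxbp6* (456 and 84.0 CPM) and *Zbtb16* (138 and 28.2 CPM), with relative log2 ratios from -2.28 to -2.01. Sublibrary ranges were apart in all but *Adgrl3*. *Arhgef37* and *Gpr141* were among the leading genes of the cluster that held most of the control cells of the class.

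**Figure D3:**
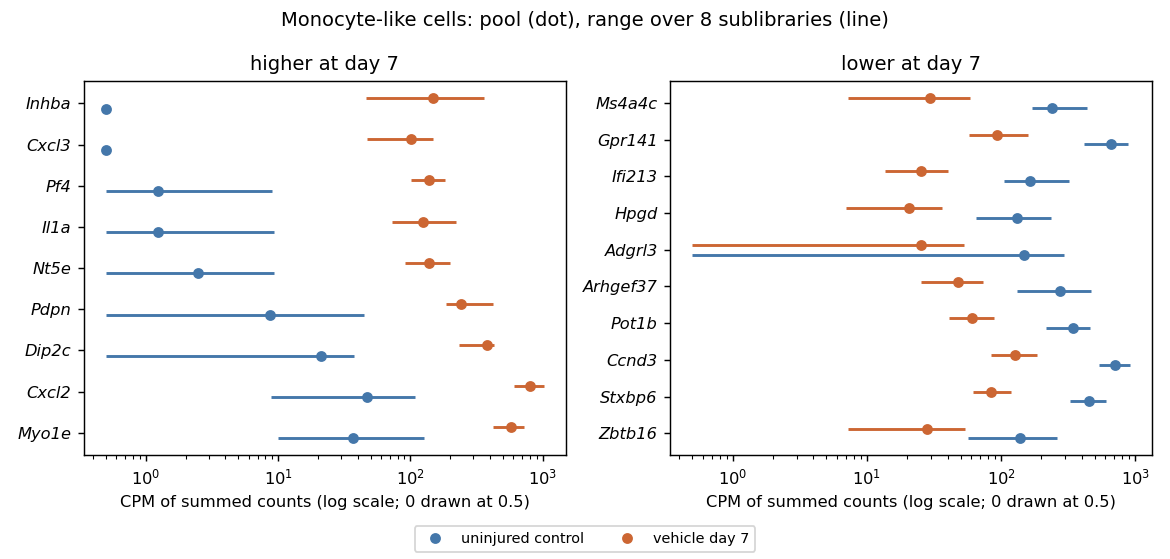
Level in CPM (log axis, 0 drawn at 0.5) of named genes in monocyte-like cells, with dots for the control and vehicle day 7 pools and lines for the range over the 8 technical sublibraries. *Cxcl2* stands at 46.9 and 798 CPM, *Inhba* and *Cxcl3* have no control counts, and the lines of *Adgrl3* overlap.

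Glycolysis and hypoxia genes were the list with the most members beyond 2-fold in monocyte-like cells. Of 14 kept, 10 were beyond 2-fold higher relative to the median and none lower, where 8.67% of all genes were higher, and the list median was 1.45. The glucose transporter gene *Slc2a1* stood at 58.0 and 182 CPM (1.92), *Ero1a* at 42.0 and 128.5 CPM (1.88), *Eno1* at 59.3 and 178 CPM (1.85), *Hk2* at 84.0 and 215 CPM (1.63), *Pkm* at 136 and 334 CPM (1.57) and *Hif1a* at 191 and 421 CPM (1.41). *Vegfa*, the hypoxia-induced growth factor gene for vessels, stood at 44.4 and 463 CPM (3.64). Of 14 kept lipid-handling genes, 7 were beyond 2-fold higher relative to the median, with a list median of 0.86. *Abca1* stood at 82.7 and 820.3 CPM (3.58), *Cd9* at 27.2 and 172 CPM (2.91), *Spp1* at 105 and 595 CPM (2.77), *Ctsd* at 43.2 and 211.5 CPM (2.55) and *Cd36* at 71.6 and 173 CPM (1.54). All 10 kept injury genes of 18 lay above the median of all genes, with a list median of 0.98. *Thbs1* stood at 664 and 3129.5 CPM (2.52), and after thinning was found in 15.5% and 49.1% of cells. The chemokine gene *Ccl2*, whose product draws monocytes, stood at 14.8 and 184 CPM (3.85), and the proteinase genes *Mmp19* and *Adam8* at 13.6 and 156 CPM (3.74) and at 49.4 and 239 CPM (2.54).

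Interferon response genes were lower. All 5 kept genes of 23 were beyond 2-fold lower on both scales, where 5.37% of all genes were lower relative to the median, and the list median was -1.67. Of these, *Oasl2* stood at 129.6 and 28.2 CPM (-1.92), *Mx1* at 91.4 and 22.6 CPM (-1.74), *Stat2* at 167 and 43.2 CPM (-1.67) and *Ifi204* at 243 and 73.0 CPM (-1.46). The chemokine gene *Cxcl10*, an interferon target, stood at 101 and 28.9 CPM (-1.53). MHC class I genes had a median of -0.78, with *B2m* (549 and 203 CPM, -1.16) and their transactivator *Nlrc5* (202.5 and 74.4 CPM, -1.17) beyond 2-fold lower on both scales, and 6 of 7 kept beyond 2-fold lower on the CPM scale, where 10.5% of all genes were. MHC class II genes had a median of -0.81 with none of 6 kept beyond 2-fold relative to the median and 5 of 6 beyond 2-fold lower on the CPM scale, where 10.5% of all genes were. *Cd74*, the invariant chain, stood at 2307.6 and 978 CPM (-0.96). Heat shock genes had a median of -0.80, with 5 of 10 beyond 2-fold lower on both scales, among them *Hsph1* (270.4 and 78.0 CPM, -1.51) and *Dnajb1* (93.8 and 22.9 CPM). Of the integrin and adhesion genes, *Itgal* (295 and 64.1 CPM, -1.92) and *Itga4* (819.8 and 223 CPM, -1.59), which code for integrin alpha chains, were among those beyond 2-fold lower. The glucocorticoid list was split. *Zbtb16*, *Tsc22d3* (95.1 and 26.6 CPM, -1.56) and *Fkbp5* (156 and 53.4 CPM, -1.26) were lower and *Errfi1* (37.0 and 113 CPM, 1.87) higher, with a median of -0.23 over 9 kept genes.

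Among dendritic classes the cDC2-like cells (532 and 266 cells) differed more by count. With a median log2 ratio of -0.22, 95 of 3044 genes (3.12%) were beyond 2-fold higher and 123 (4.04%) beyond 2-fold lower on the CPM scale, or 139 (4.57%) and 57 (1.87%) relative to the median. The cystine transporter gene *Slc7a11* stood at 7.76 and 117 CPM (relative log2 ratio 4.09), the lectin receptor gene *Clec4n*, coding for Dectin-2, at 7.31 and 106 CPM (4.04), *Dcstamp* at 17.4 and 206.5 CPM (3.77), *Gda* at 47.0 and 403 CPM (3.31), *Cxcl2* at 15.1 and 113 CPM (3.11) and *Htr7*, a serotonin receptor gene, at 38.8 and 226 CPM (2.75). Their sublibrary ranges were apart. *Clec7a*, coding for Dectin-1, stood at 158.5 and 362 CPM (1.41). *Zbtb16* (319.7 and 50.6 CPM, -2.43), *Tsc22d3* (95.9 and 15.7 CPM, -2.37), *Hpgd* (242 and 40.6 CPM, -2.34), *Adgrl3* (278 and 51.3 CPM, -2.21), *Cadm1* (353.5 and 74.8 CPM, -2.02) and *Fkbp5* (174.5 and 44.9 CPM, -1.73) were lower, with ranges apart.

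The glucocorticoid list had 4 of 9 kept genes beyond 2-fold lower in cDC2-like cells, where 1.87% of all genes were, with a median of -0.72, and the added member was *Txnip* (158 and 59.8 CPM, -1.18). Heat shock genes had a median of -0.78 with all 11 kept genes below the median of all genes, *Hsph1* standing at 608 and 205 CPM (-1.35). MHC class II genes had a median of -0.02 over 9 kept genes. In this class the summed neutrophil markers stood at 640.8 and 1107.2 CPM and the summed monocyte markers at 662 and 946 CPM, with 7 and 6 of the 7 neutrophil markers detected and *Retnlg* at 0 at day 7. Their part in the values was not tested.

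In cDC1-like cells (367 and 154 cells) 97.4% of 3090 genes lay within 2-fold. With a median log2 ratio of -0.21, 25 (0.809%) were beyond 2-fold higher and 54 (1.75%) lower on the CPM scale, or 39 (1.26%) and 24 (0.777%) relative to the median. *Pim1*, a kinase gene downstream of cytokine receptors, stood at 92.6 and 224 CPM (1.48), *Csf2rb*, a cytokine receptor chain gene with a near-identical copy, at 80.5 and 209 CPM (1.58), and *Junb* at 75.2 and 176 CPM (1.43). The sublibrary ranges of these 3 overlapped. *Cacnb2* stood at 160.5 and 37.7 CPM (-1.86), *Fkbp5* at 167 and 54.2 CPM (-1.40), *Cldn1* at 93.7 and 30.6 CPM (-1.38) and *Ccnd3* at 587 and 209.7 CPM (-1.27), with ranges apart. *Tlr11*, a receptor gene for profilin, stood at 76.8 and 29.5 CPM (-1.15, ranges overlapping). MHC class II genes had a median of 0.02 over 8 kept genes.

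Lymphocytes differed in few genes. In T-like cells (641 and 168 cells), with 3156 genes kept and a median log2 ratio of -0.19, 29 (0.919%) were beyond 2-fold higher and 77 (2.44%) lower on the CPM scale, or 63 (2%) and 32 (1.01%) relative to the median. *Atp8a2* stood at 131 and 17.1 CPM (-2.66), the potassium channel gene *Kcnq5* at 1575.1 and 389.6 CPM (-1.82) and *Lyst*, a lysosome trafficking gene, at 901 and 253 CPM (-1.64), with ranges apart. *Itga1*, coding for CD49a, stood at 286 and 98.5 CPM (-1.33) and *Zfp683*, coding for the transcription factor Hobit, at 76.5 and 25.7 CPM (-1.33), both with overlapping ranges. *Cxcr6* stood at 174 and 79.2 CPM (-0.93) and *Tbx21*, coding for T-bet, at 164 and 68.5 CPM (-1.04). *Ctla4*, an inhibitory receptor gene, stood at 100 and 220.5 CPM (1.34). Of the 14 kept genes of the T cell state list, *Ctla4* was beyond 2-fold higher and *Tbx21* lower, and the list median was -0.05. All 10 kept heat shock genes lay below the median of all genes, with a list median of -0.58. In B-like cells (382 and 151 cells), with 3164 genes kept and a median log2 ratio of -0.06, 23 (0.727%) were beyond 2-fold higher and 50 (1.58%) lower on the CPM scale, or 36 (1.14%) and 37 (1.17%) relative to the median. *Setdb2* (88.7 and 19.8 CPM, -1.99), *Chuk*, coding for the NF-kB kinase IKK alpha (87.5 and 29.7 CPM, -1.43), and *Fkbp5* (79.4 and 36.3 CPM, -1.01) rested on 6, 9 and 11 counts at day 7.

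Endothelial-like cells (2050 and 206 cells) kept the level of 97.7% of 3394 genes. With a median log2 ratio of -0.10, 40 (1.18%) were beyond 2-fold higher and 37 (1.09%) lower on the CPM scale, or 51 (1.5%) and 22 (0.648%) relative to the median. *Zbtb16* (chr9:48654297-48836222, minus strand), coding for the transcription factor PLZF, stood at 450.5 CPM in the control (382.9 to 502.6 over the sublibraries) and 26.4 CPM at day 7 (0 to 47.4), from 2907 and 15 counts, with a relative log2 ratio of -3.95 (-4.84 to -3.27). *Fkbp5* stood at 303 and 82.7 CPM (-1.76). The retinoic acid hydroxylase gene *Cyp26b1* stood at 253 and 89.8 CPM (-1.39), the fatty acid transporter gene *Cd36* at 288 and 104 CPM (-1.36) and the survival gene *Bcl2l1*, coding for BCL-xL, at 444 and 172.5 CPM (-1.26), with ranges apart. Of 8 kept glucocorticoid genes all lay below the median of all genes, with a list median of -0.36, and *Zbtb16* and *Fkbp5* were the 2 beyond 2-fold, while *Tsc22d3* stood at 62.6 and 56.3 CPM (-0.04).

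Of the 26 endothelial activation genes 15 were kept, and none was beyond 2-fold, with a list median of -0.16. Over all kept genes 1.5% were beyond 2-fold higher and 0.648% lower relative to the median, so a count of none is near that share and says nothing particular about the list. *Vcam1*, an adhesion receptor gene for leukocytes, stood at 38.9 and 66.9 CPM (0.89). All 9 kept interferon response genes lay below the median of all genes, with a list median of -0.40 and *Ifit2* at 108 and 45.8 CPM (-1.12), and so did all 9 kept MHC class I genes, with a median of -0.48. On the higher side *Cd44* stood at 25.9 and 105.6 CPM (2.13) with day 7 sublibraries between 11.8 and 427.1. The top 10 cells held 81.7% of its 60 day 7 counts, and the share of cells with a count was 7.17% in the control and 10.2% at day 7. *Mast4* stood at 117.5 and 361 CPM (1.72), *Runx1* at 57.0 and 140.8 CPM (1.41), both with overlapping ranges as for *Cd44*, and *Abca1* at 124 and 292 CPM (1.34) with ranges apart. The summed monocyte markers in this class stood at 80 and 197.1 CPM, with 8 and 7 of 8 detected and *Chil3* at 0 at day 7, and the summed macrophage markers at 342.7 and 313.3 CPM. Their part in the higher values was not tested.

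In proximal tubule-like cells (1098 and 155 cells), with 2907 genes kept and a median log2 ratio of -0.15, 18 (0.619%) were beyond 2-fold higher and 51 (1.75%) lower on the CPM scale, or 30 (1.03%) and 28 (0.963%) relative to the median. *Slco1a1*, an organic anion transporter gene, stood at 123.5 and 24.4 CPM (-2.12), *Cd36* at 108.6 and 26.7 CPM (-1.81), *Agps*, an ether lipid synthesis gene of peroxisomes, at 249 and 68.9 CPM (-1.68), *Cyp2j13* at 291.5 and 88.9 CPM (-1.54) and *Nudt19*, a coenzyme A hydrolase gene, at 195 and 60.0 CPM (-1.52). The receptor gene *Erbb4* stood at 121 and 20 CPM (-2.37). Only 3 of 23 tubule injury and repair genes were kept, with *Egf* at 172 and 33.3 CPM (-2.17) and *Spp1* at 279.5 and 358 CPM (0.51), and a list median of -0.01. *Erbb4* and *Egf* were also among the leading genes of cluster 12, beside the loop of Henle genes *Slc12a1* and *Umod*. Within the proximal tubule-like class the summed loop of Henle markers stood at 516.5 CPM (278.3 to 1329.1 over the sublibraries) and 224.5 CPM (95.8 to 340.4), with 5 and 4 of 5 detected and *Cldn16* at 0 at day 7. The summed distal and collecting duct markers stood at 101.5 and 20 CPM, with 8 and 4 of 9 detected. Their part in the lower values was not tested. Of the cells this gate named, 22.6% fell in a cluster of that name, so the class rests mainly on the marker gate.

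**Figure D4:**
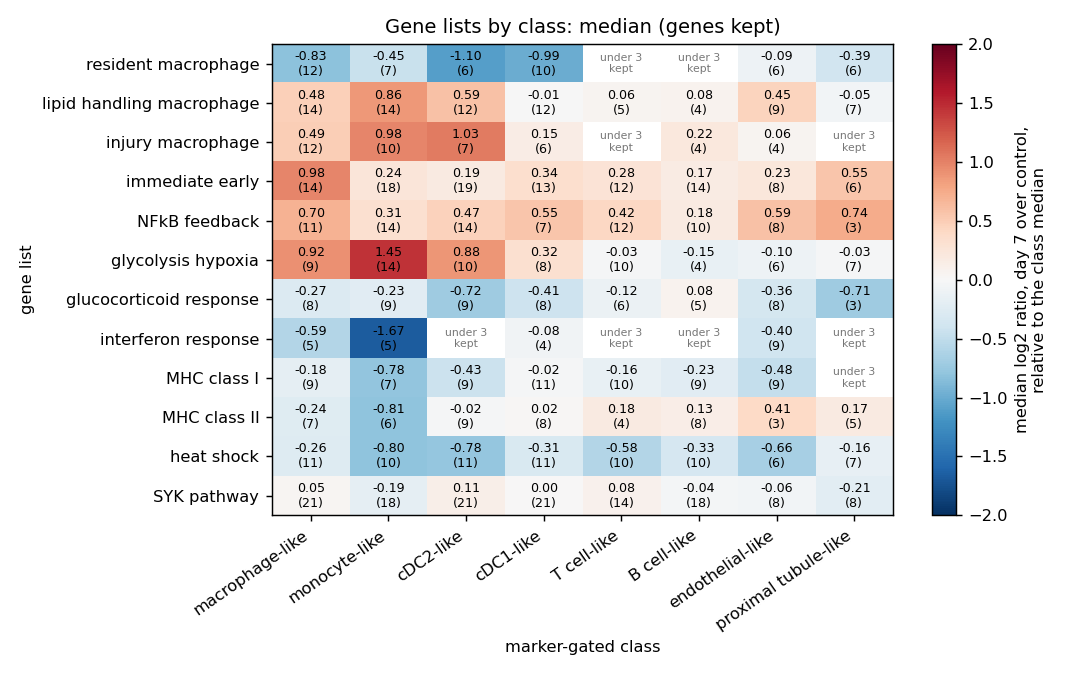
Median relative log2 ratio of day 7 to control (color and upper number, with the number of kept genes in brackets) for each gene list (rows) in each class (columns), where at least 3 genes were kept. Glycolysis genes stand at 1.45 and interferon response genes at -1.67 in monocyte-like cells. Resident macrophage genes stand at -0.83 in macrophage-like, -1.10 in cDC2-like and -0.99 in cDC1-like cells.

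Across the 8 classes 3030 genes were kept in at least 4, and of these 19 were beyond 2-fold higher and 6 beyond 2-fold lower relative to the median in at least 4 classes. The 6 lower genes were *Fkbp5*, *Tsc22d3*, *Zbtb16*, *Ccnd3*, *Tgfbr1* and *Adgrl3*. *Fkbp5* had relative log2 ratios of -2.39 in macrophage-like, -1.26 in monocyte-like, -1.73 in cDC2-like, -1.40 in cDC1-like, -0.90 in T-like, -1.01 in B-like, -1.76 in endothelial-like and -0.71 in proximal tubule-like cells, so it was below the median of its class in all 8. *Zbtb16* stood at 0.00 in T-like cells and was beyond 2-fold lower in 4 of the 5 classes in which it was kept. *Tgfbr1* stood at -1.54 in macrophage-like, -1.26 in cDC2-like, -1.30 in cDC1-like and -1.23 in proximal tubule-like cells. The higher genes included genes of the set that was high in every class, together with *Thbs1*, *Cxcl2*, *Abca1*, *Csf2rb*, *Tgm2*, *Txnrd1* and *Ifrd1*. In classes with low levels *Thbs1* and *Cxcl2* rested on few cells. The top 10 cells held 82.5% of *Thbs1* counts at day 7 in cDC1-like, 85.2% in B-like and 76.3% in endothelial-like cells, and 88.3% of *Cxcl2* counts in cDC1-like cells.

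The vehicle pools of days 1 and 14 place the day 7 levels in a series of 4 single pools that share the control, so the values are given side by side, and the order of the levels describes these single pools and was not tested. In macrophage-like cells *Vegfa* stood at 4.18 CPM in the control, 37.7 at day 1, 76.8 at day 7 and 56.4 at day 14. *Cxcl2* stood at 46.7, 636, 245.5 and 131 CPM in the same order, and *Thbs1* at 31.3, 672.5, 391.7 and 313 CPM. For *Vegfa* the highest level was at day 7, while for *Cxcl2* and *Thbs1* it was at day 1. *Abca1* stood at 156, 343, 559.8 and 706 CPM, with the highest level at day 14. *Fkbp5* stood at 400.7, 159.5, 61.1 and 74.3 CPM, *Tgfbr1* at 3069.9, 1532.7, 848 and 1035 CPM, and *Ccnd3* at 837, 80.4, 179.8 and 374 CPM. The lowest level was at day 7 for *Fkbp5* and *Tgfbr1* and at day 1 for *Ccnd3*.

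In monocyte-like cells *Cxcl2* stood at 46.9, 562.5, 798 and 135 CPM, *Abca1* at 82.7, 382, 820.3 and 231 CPM and *Vegfa* at 44.4, 136, 463 and 85.0 CPM, each highest at day 7. *Thbs1* stood at 664, 4842, 3129.5 and 608 CPM, highest at day 1. In endothelial-like cells *Zbtb16* stood at 450.5, 29.0, 26.4 and 67.2 CPM and *Fkbp5* at 303, 269, 82.7 and 188 CPM.

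**Figure D5:**
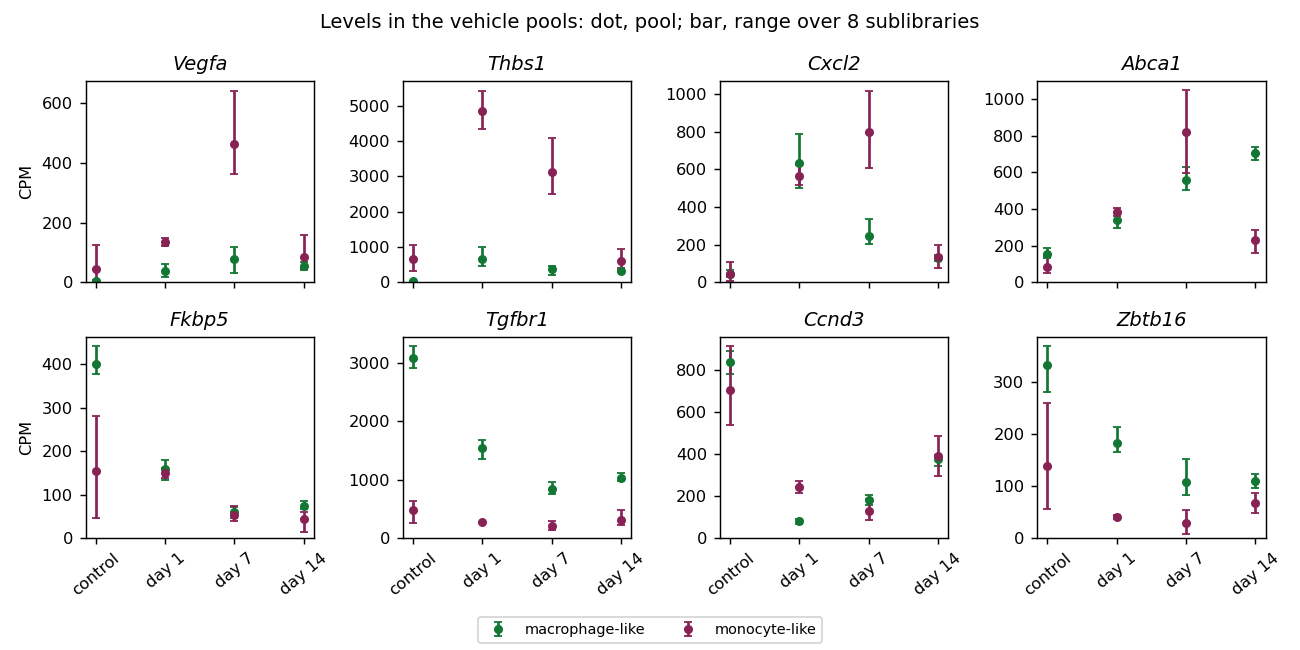
Level in CPM (linear axis from 0) of 8 genes in macrophage-like and monocyte-like cells of the control and the vehicle pools of days 1, 7 and 14, each dot 1 pool and each bar the range over the 8 technical sublibraries. In macrophage-like cells *Vegfa* is highest at day 7 (76.8 CPM) and *Fkbp5* lowest at day 7 (61.1 CPM).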

How the data were processed

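Deposited files held whole-number counts per gene and cell, which the authors made with the Parse pipeline 1.1 from Evercode WT v2 libraries. Reads were aligned to mm10 per the labels, and the annotation release is not given in the sources used here. The condition of each cell came from the deposited cell table, since each of the 8 deposited samples holds cells of all 7 conditions. The table holds 57010 genes and 120281 barcodes, and 0 columns belonged to samples outside it.

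Cells with more than 300 genes, fewer than 20000 counts and less than 25% mitochondrial counts were kept. A cell was assigned to 1 of 22 marker classes by at least 2 markers, weighted by their rarity. Cells with at least 3 markers of a second lineage were set aside and kept in the denominator of shares. No doublet caller was run, so doublets within a lineage remain. Counts were summed per class and pool and scaled to CPM. Log2 ratios used a prior count of 0.5, with genes at a mean of at least 50 CPM. Shares have Clopper-Pearson and CPM exact Poisson 95% intervals, for counting error only. The named genes were up to 10 highest and 10 lowest per class beyond 2-fold with 1 direction in all 8 sublibraries, leaving out marker, mitochondrial, ribosomal and predicted genes, plus list members; some genes that met this rule are not reported here. Genes named for comparison beside these (technical genes, genes shared across classes, members below 2-fold and those of neutrophil-like cells) were chosen after their values were seen. In the 30 gene lists 519 genes matched. The markers, lists and the comparison itself were chosen with earlier results of these data known. To compare shares of cells with a count, each cell was thinned to 500 counts.

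Alternatives were stricter and looser limits, gates and minimums, other scalings including edgeR 4.0.16 TMM factors in R 4.3.3, Leiden clusters (leidenalg 0.10.2), and leaving out each sublibrary in turn. Gene coordinates are from GENCODE vM21 (GRCm38), and promoters from RefSeq (GRCm38.p6). Python 3.11.15, numpy 2.4.6, pandas 2.3.3, scipy 1.17.1 and matplotlib 3.10.9 were used, and the ratio and gate scripts were tested on simulated data.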

Additional observations from a re-analysis of the deposited data

Results flagged for a closer look

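Of 18 shares tested for a sublibrary far from the other 7 of its pool, 2 had one, and chance gives such a sublibrary in about 1 of 20 groups. The share of monocyte-like cells in the control was 1.22% in its lowest sublibrary against 1.91% in the pool, and the share of proximal tubule-like cells in the control was 12.9% in its highest sublibrary against 9.8% in the pool. Sublibraries are technical portions of 1 pool.

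Over 28 pairs of classes, 3 genes were beyond 2-fold in opposite directions by their summed counts. Each direction, but not necessarily the 2-fold size, held in all 8 sublibraries of its class. The differences were not tested. *Pde4d*, which codes for a cAMP phosphodiesterase, stood at 86.4 and 298.8 CPM in monocyte-like and at 282.3 and 99 CPM in cDC2-like cells, with relative log2 ratios of 2.06 and -1.29 that differ by 3.35. *Cd36* was higher in monocyte-like cells (1.54) and lower in endothelial-like (-1.36) and proximal tubule-like cells (-1.81), which differ from it by 2.90 and 3.36. *Bcl2l1* stood at 35.8 and 85.6 CPM in monocyte-like and at 443.7 and 172.5 CPM in endothelial-like cells, a difference of 2.78. The monocyte-like cells of the pools lay mostly in different clusters, as given above.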

How the results depend on the processing

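The 223 values counted here are each of a named or listed gene in 1 class or over all cells, so a gene can count more than once. None reversed under any alternative in which the gene was kept. Genes named by the rule were chosen for 1 direction in all 8 sublibraries, so leaving out 1 sublibrary could hardly reverse them. Below 2-fold were 22 of 198 values with second-lineage cells kept, 20 of 196 with the mean over cells, 13 of 223 on the CPM scale, 13 of 223 with totals without mitochondrial and ribosomal protein genes, 13 of 37 in macrophage-like cells with fewer than 2 monocyte markers, and between 2 and 8 under each other alternative. Leaving out 1 sublibrary, 5 to 12 were below 2-fold. With leukocyte classes as the denominator, the log2 ratios of shares were -0.63 for macrophage-like, 1.99 monocyte-like, 4.74 neutrophil-like, -0.68 cDC2-like, -0.93 cDC1-like, -1.61 T-like and -1.02 B-like cells. With cells thinned to 500 counts they were -0.25 for macrophage-like, 4.92 neutrophil-like, -0.69 cDC2-like and -1.45 T-like cells, and with clusters -0.25 for macrophage-like and 7.49 for monocyte-like cells. With more than 500 genes per cell the macrophage-like ratio was 0.084.

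Genes beyond 2-fold numbered, with a minimum of 25 CPM, of 100 CPM and with none, 879, 251 and 6733 over all cells, 317, 112 and 3769 in macrophage-like, 774, 281 and 4015 in monocyte-like, 386, 104 and 2621 in cDC2-like, 186, 29 and 2577 in cDC1-like, 263, 50 and 2638 in T-like, 265, 14 and 2179 in B-like, 199, 35 and 3404 in endothelial-like and 197, 26 and 2700 in proximal tubule-like cells. These settings change which genes are counted. Other counts were 93 in macrophage-like cells with fewer than 2 monocyte markers, 127 in cDC1-like cells under 1.5% ribosomal protein counts, 116 in B-like and 142 in proximal tubule-like cells with second-lineage cells kept, and in proximal tubule-like cells 128 with TMM factors and 113 with the mean over cells.

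On the CPM scale, and with totals without mitochondrial and ribosomal protein genes, list medians in macrophage-like cells were -1.15 and -1.14 for resident, 0.16 and 0.17 for lipid-handling, 0.17 and 0.18 for injury, 0.38 and 0.39 for NF-kB and -0.59 and -0.58 for glucocorticoid genes. In monocyte-like cells they were 0.58 and 0.59 for lipid-handling, 0.69 and 0.70 for injury and -1.08 and -1.08 for heat shock genes. In macrophage-like cells with fewer than 2 monocyte markers the medians were -0.55 for resident, 0.21 for lipid-handling and 0.14 for glycolysis genes, and -0.68 for resident genes with the mean over cells. At minimums of 25 CPM, 100 CPM and none the macrophage-like injury median was 0.91, 0.27 and 0.73. The glucocorticoid median in macrophage-like cells was -0.049 at 25 CPM and 0.071 with none. In monocyte-like cells glycolysis stood at 1.55 with TMM factors and 1.56 with no minimum, heat shock at -0.99 at 100 CPM, and injury at 0.89 with totals without *Rn18s-rs5* and the genes high in every class (chosen after seeing the data). The endothelial activation median was 0.13 with second-lineage cells kept. Apart from the counts by minimum, the cause was not tested.

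Leaving out 1 sublibrary moved the medians in monocyte-like cells to between 1.43 and 1.56 for glycolysis and between 0.88 and 1.09 for injury genes. No paired analysis was possible because each condition was 1 pool. Anesthesia, surgery and vehicle injections went with the injury at day 7, and the sources name none of them for the control mice. These, and differences between mice, between sorts and in depth, cannot be told apart from the injury in these data.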

Other observations

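Neutrophil-like cells numbered 73 in the control, too few for the comparison across genes, so their values are given without counts of genes beyond 2-fold. Their summed counts were 117883 in the control and 2615377 at day 7. *Cxcl2* stood at 356.3 CPM (95% Poisson interval 256.8 to 481.6) and 3337.2 CPM (3267.5 to 3407.9). *Abca1* stood at 17.0 CPM (2.05 to 61.3, from 2 counts in 2 of 73 cells) and 1142.1 CPM (1101.5 to 1183.8), *Nlrp3*, coding for an inflammasome sensor, at 534.4 and 1722.5 CPM, and *Il1rn*, coding for the interleukin 1 receptor antagonist, at 152.7 and 879.8 CPM. *Ccnd3* stood at 1476.0 and 270.7 CPM and *Adam8* at 746.5 and 192.3 CPM. *Il1b* stood at 6760.9 and 9606.3 CPM.

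*Fkbp5* was also measured in classes too small for the comparison across genes. It stood at 126.1 and 19.9 CPM in cells like non-classical monocytes (173 and 53 cells), at 257.8 and 100.9 CPM in cells like natural killer cells (100 and 68 cells) and at 196.3 and 100.2 CPM in cells like plasmacytoid dendritic cells (170 and 49 cells). In each of the 3 classes the control value was the higher one.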
